A study of Mus musculus with 4 samples.

Results

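The genes described here are 10 components and targets of the BMP and TGF-beta pathways: the secreted antagonists Grem1, Nog and Fst, the decoy receptor Bambi, the BMP-responsive genes Id1, Id2, Id3 and Smad6, the shared feedback gene Smad7, and the TGF-beta-induced gene Tgfbi. They were taken by gene name from the 4 arrays of the series, on which 29675 genes were represented in all. Each of the 10 had 1 probe, so no choice between probes was needed. In 9 of them the probe was well above background, as called by the scanner software, on all 4 arrays. Bambi was above background on 0 arrays and has no usable level or fold.

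The arrays were hybridised with RNA from Swiss 3T3 cells, a mouse fibroblast line, that either carried intact Lpar1 (Lpar1+/+, called WT) or had lost this receptor for lysophosphatidic acid through CRISPR/Cas9 editing (Lpar1-/-, called KO). Both genotypes were sampled at 0 h and 24 h in a coculture experiment with WT mast cells grown from bone marrow, in 100 ng/ml of the mast cell growth factor SCF. The KO line came from single-cell cloning, so the genotype and the clone cannot be told apart. After coculture, fibroblasts were separated by trypsin and reseeding or with CD117 beads, and which cells went into the 0 h samples is not given in the labels. Each of the 4 groups had 1 array, made from RNA pooled from 3 samples. There was therefore no spread between replicates, no test was run, and no p-value is given.

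Values are log2 processed signals after subtraction of each array's 75th percentile, so that 0 marks that percentile. A difference of 1 on this scale is 2-fold. The error given is the standard error (SE) that the scanner software attaches to the spots, which leaves out differences between cultures. A difference was counted where it reached 2-fold, a description of 4 arrays rather than of the conditions. The 5 contrasts described share arrays and are not independent of each other.

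Some features of the arrays bear on all genes below. The probe for Lpar1 read −3.20 and −3.43 on the WT and KO arrays at 0 h and −3.15 and −3.61 at 24 h, but nothing in the files places it in the edited stretch, so it does not check the genotype. Of 20 fibroblast markers, 18 or 19 were above background on each array, with medians of 2.32 and 2.66 in WT at 0 h and 24 h and 1.52 and 2.54 in KO. Of 20 mast cell markers, 20 were above background on each 0 h array, with medians of 4.17 in WT and 4.97 in KO. At 24 h, 15 were above background in each genotype, with medians of −4.99 and −4.92. The highest mast cell marker at 24 h read −1.75 in WT and 3.86 in KO. The mast cell list held 0.00125% of the summed signal in WT and 0.0155% in KO at that time. The 10 pan-leukocyte markers had medians of 2.26 and −4.83 in WT and 3.29 and −4.56 in KO, so the 0 h arrays carried mast cell and leukocyte RNA and the 24 h arrays carried far less. The medians of 10 macrophage and granulocyte markers lay between −3.30 and −1.42, those of 5 endothelial markers between −7.78 and −4.11, and those of 5 epithelial markers between −6.50 and −5.75. In these bulk samples, fewer cells of a type and less RNA per cell cannot be told apart. With the signal of a mixed sample expressed per total RNA, the part of the mast cell RNA in the members' values was not tested, and the marker medians are given again where they move with a result. The 8 spiked-in control RNAs with a mean level above −4, whose added amounts are not given in the sources used here, differed between KO and WT by a median of 0.33 at 0 h and 0.54 at 24 h on this scale. Scaling to these RNAs below used another quantity, each array's median level over the 8. It moved KO minus WT of Grem1 from 3.82 to 3.57 at 0 h and from 5.66 to 5.22 at 24 h.

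BMPs and TGF-betas are secreted ligands of the same superfamily that signal through paired serine/threonine kinase receptors. BMP receptors activate Smad1, Smad5 and Smad9, which switch on the Id genes and Smad6, while TGF-beta and activin receptors activate Smad2 and Smad3, which switch on matrix and contractile genes in fibroblasts. Secreted antagonists bind the ligands outside the cell, and the inhibitory Smads act inside it as feedback.

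Promoter sequence is shown for the 4 members that were at least 2-fold apart between arrays in a comparison of genotype or time and for which the RefSeq table used here held a window. Each run holds the 250 bases before the annotated start on the gene's own strand, in build GRCm38.p6, at chr2:113758649-113758898 (minus strand) for Grem1, chr12:25096093-25096342 (minus strand) for Id2, chr9:64022060-64022309 (minus strand) for Smad6 and chr13:56609336-56609585 (plus strand) for Tgfbi. Capitals mark GTCT, the core of Smad-binding elements, and GGCGCC, a GC-rich element bound by BMP-activated Smads, on either strand, so AGAC is GTCT read on the other strand.
Grem1: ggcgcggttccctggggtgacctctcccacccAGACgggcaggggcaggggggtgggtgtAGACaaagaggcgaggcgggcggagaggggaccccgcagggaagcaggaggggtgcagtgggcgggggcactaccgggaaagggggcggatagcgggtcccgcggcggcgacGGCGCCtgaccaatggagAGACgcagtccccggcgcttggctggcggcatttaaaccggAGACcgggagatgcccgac
Id2: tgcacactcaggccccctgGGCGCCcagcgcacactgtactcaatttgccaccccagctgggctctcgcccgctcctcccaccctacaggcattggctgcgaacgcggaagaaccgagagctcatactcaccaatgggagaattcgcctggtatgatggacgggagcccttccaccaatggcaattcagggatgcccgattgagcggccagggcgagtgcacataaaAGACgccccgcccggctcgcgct
Smad6: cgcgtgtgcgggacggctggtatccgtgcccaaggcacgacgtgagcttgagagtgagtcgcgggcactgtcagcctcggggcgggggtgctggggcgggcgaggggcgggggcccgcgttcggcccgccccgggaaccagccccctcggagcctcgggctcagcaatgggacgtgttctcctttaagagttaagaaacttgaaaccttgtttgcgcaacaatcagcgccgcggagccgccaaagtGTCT
Tgfbi: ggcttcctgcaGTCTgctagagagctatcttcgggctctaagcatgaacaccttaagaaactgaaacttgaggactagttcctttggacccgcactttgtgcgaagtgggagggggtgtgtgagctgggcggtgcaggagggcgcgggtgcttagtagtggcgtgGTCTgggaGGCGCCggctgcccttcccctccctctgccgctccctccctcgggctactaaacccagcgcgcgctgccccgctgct
The Grem1 run held 4 matches to GTCT and 1 to GGCGCC, that of Id2 held 1 and 1, that of Smad6 held 1 and 0, and that of Tgfbi held 2 and 1. Id3, the other member with a window, held 2 and 0. A GTCT match is no special feature, since 82.9% of the 32851 promoter windows of this length held one, with a median of 2 matches. GGCGCC was in 9.59% of them. The median GC content of all windows was 52.4%, while the windows of the 5 members held 62.4% to 72.0%. The part of GC content in the GGCGCC matches was not tested. The GTCT at the end of the Smad6 run lies at the annotated start and belongs to a palindrome, GTCTAGAC, that runs past it. That palindrome, which contains GTCT on both strands, was in 0.213% of all windows once 50 bases after the start were added (300 bases in all), and of the 5 members with a window in Smad6 alone. These matches describe the letters of the windows and say nothing of binding.

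Grem1, which encodes the secreted BMP antagonist gremlin 1, differed more between the genotypes than any other measured member. Its probe lies at chr2:113589227-113589286 on the minus strand of mm9, the build of the array's annotation in the file headers. The processed signal was 1673 and 764 in WT at 0 h and 24 h, and 19815 and 31318 in KO. On the normalized scale these were 0.48 and −0.28 in WT and 4.30 and 5.38 in KO, and both KO arrays lay far above both WT arrays. KO exceeded WT by 3.82 (SE 0.20) at 0 h, a 14.1-fold difference that ranked 39 of 20308 measured genes from the highest. The difference at 24 h was 5.66 (SE 0.20), or 50.6-fold, and ranked 17 of 17283. The order of the levels was WT 24 h, WT 0 h, KO 0 h and KO 24 h, with every step larger than the spot error.

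Grem1 also moved with time in opposite directions in the 2 genotypes. The 24 h array was lower than the 0 h array by 0.76 in WT, which gives a log2 change of −0.76 (SE 0.20), and higher by 1.08 (SE 0.20) in KO, a 2.11-fold difference. The KO change minus the WT change was thus 1.84 (SE 0.29), rank 124 of 17111 genes. The gain over time in KO did not reach 2-fold under 5 of the alternative scalings, where it was 0.74 (quantile normalization), 0.98 (cyclic loess), 0.70 (normexp and quantile), 0.35 (scaling to fibroblast markers) and 0.72 (scaling to spiked-in control RNA).

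Noggin, encoded by Nog, is another secreted BMP antagonist and showed no such pattern. Its processed signal was 147.5 and 139.7 in WT at 0 h and 24 h, and 120.1 and 126.6 in KO (probe at chr11:89162849-89162908 of mm9, minus strand). The normalized levels of −3.02 and −2.73 in WT and −3.06 and −2.57 in KO spanned less than 2-fold over all 4 arrays. KO minus WT was −0.04 (SE 0.21) at 0 h and 0.16 (SE 0.21) at 24 h, both within the spot error. Nog changed by 0.29 with time in WT and by 0.49 in KO, with a difference of 0.20 between these changes.

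Fst encodes follistatin, which binds activins and, less tightly, some BMPs. Its signal was 9063 and 5481 in WT at 0 h and 24 h, and 4389 and 5368 in KO, or normalized levels of 2.92 and 2.57 in WT and 2.13 and 2.84 in KO (chr13:115243565-115243624 of mm9, minus strand). The KO 0 h array was the lowest and the WT 0 h array the highest. KO was below WT at 0 h, with a difference of −0.79 (SE 0.20), and 0.27 (SE 0.20) above it at 24 h. Neither reached 2-fold, but the time changes of −0.36 in WT and 0.71 in KO differed by 1.07 (SE 0.29).

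Bambi encodes a receptor-like protein without a kinase domain that dampens both pathways. Its processed signal was 1.863 and 3.212 in WT at 0 h and 24 h, and 2.3 and 1.695 in KO, at chr18:3516008-3516067 of mm9 on the plus strand. It was not well above background on any of them, and its normalized values have no order.

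**Figure D1:**
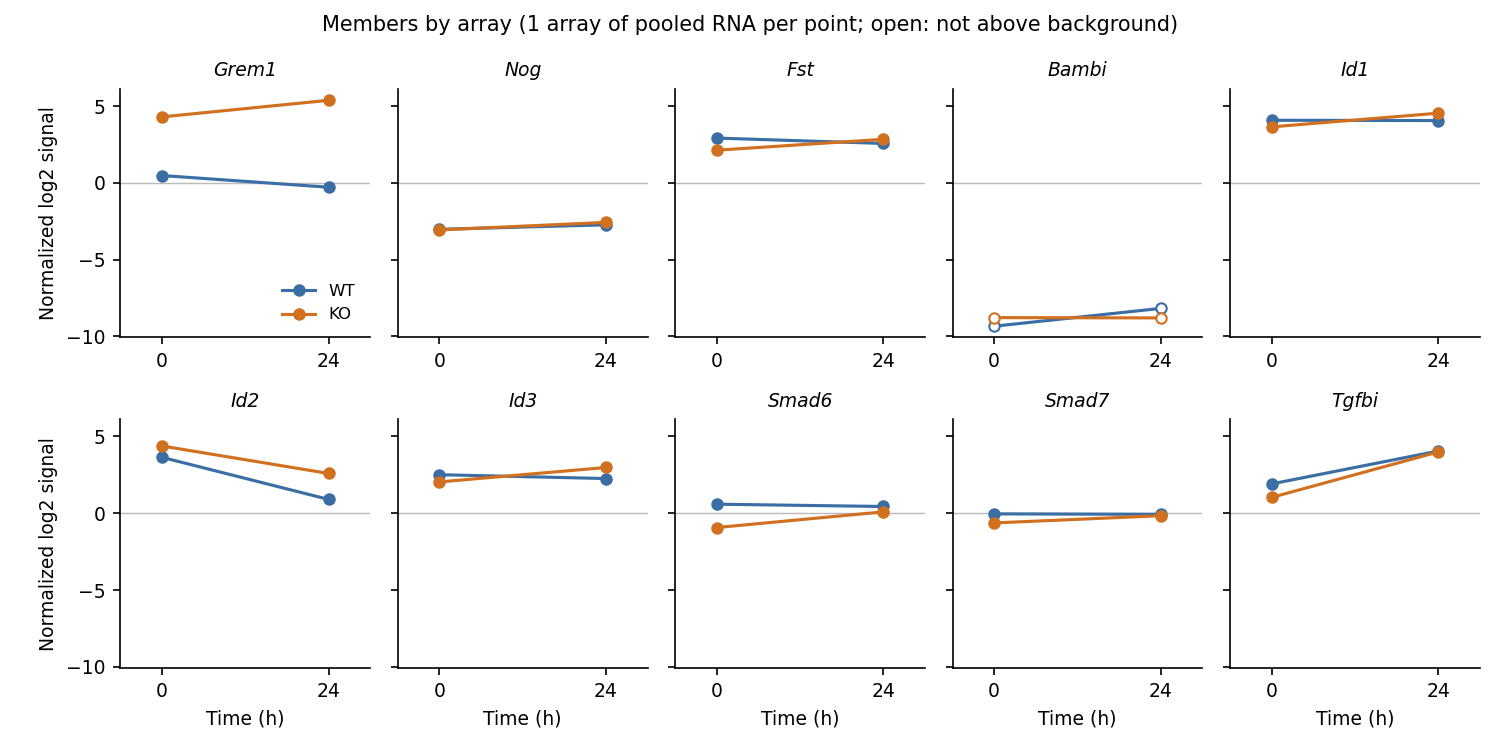
Normalized log2 signal of the 10 genes at 0 h and 24 h in WT (blue) and KO (orange), with 1 array of pooled RNA per point and the grey line at the array's 75th percentile. Grem1 runs from 0.48 to −0.28 in WT and from 4.30 to 5.38 in KO, Id2 is lower and Tgfbi higher at 24 h in both genotypes, and the open Bambi points are not above background.

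Among all 9 measured members, 1 was at least 2-fold higher in KO at 0 h (Grem1; 9.34% of all measured genes were) and 1 at least 2-fold lower (Smad6; 4.07% of all genes). At 24 h, 2 were higher (Grem1 and Id2, where 5.76% of all genes were) and 0 lower (12.2% of all genes). At 0 h, 7 of the 9 were below 0 (46% of all genes), with a member median of −0.47 against 0.06 for all genes. At 24 h 6 were above 0 (43.2% of all genes), with medians of 0.27 and −0.09. When arrays were scaled to fibroblast markers, the 0 h split became 6 above and 3 below 0, and the 24 h split 9 and 0. Over all genes, 18970 of 20308 were then above 0 at 0 h and 12731 of 17283 at 24 h. Scaling to the spiked-in RNA gave members 2 and 7 at 0 h and 4 and 5 at 24 h, with 7717 and 3076 of all genes above 0. The sign of 4 of the 9 genotype differences at 0 h and of 5 of the 9 at 24 h turned under one of these references, and that of Grem1 and Id2 turned at neither time. The fibroblast markers themselves had a median KO minus WT of −0.47 at 0 h (3 of 19 at least 2-fold higher, 7 lower) and −0.27 at 24 h (1 of 17 higher, 5 lower), and their part in the members' values was not tested. Scaling to them used another quantity, each array's median level over the markers measured on all arrays. That level was 2.61 in WT and 1.82 in KO at 0 h, and 3.05 and 2.55 at 24 h.

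The wider list of 16 secreted BMP and activin antagonists gives the setting of the 3 antagonists among the members. At 0 h, 3 of the 14 measured genes were at least 2-fold higher in KO (9.34% of all genes) and 0 were lower (4.07%), with a list median of 0.54 against 0.06 over all measured genes. That median was 0.20 with cyclic loess, 0.03 with normexp, −0.11 with the stricter filter on dim probes and 1.33 with scaling to fibroblast markers. They included Grem1 and Nbl1, the latter at 3.21, which encodes the founding protein of the DAN family of BMP antagonists. Nbl1 read −4.37 and −3.95 in WT at 0 h and 24 h, and −1.16 and −0.04 in KO, so that both KO arrays lay above both WT arrays.

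At 24 h, 3 of 12 measured antagonists were at least 2-fold higher in KO, among them Grem1 and Nbl1, the latter at 3.90. Of all genes, 5.76% were higher and 12.2% lower, and the list median was 0.01 against −0.09 over all genes. The 2 genes lower in KO at 24 h were Fstl3, a follistatin relative, at −1.47 and Chrdl1, a chordin relative, at −1.27. Both were dim, at −4.26 and −5.00 on WT 24 h, and KO minus WT at 24 h was −0.70 and −0.80 for the dimmest 2 spiked-in RNAs. Neither was 2-fold lower under cyclic loess, normexp or fibroblast marker scaling, while scaling to spiked-in RNA gave 4 antagonists lower. Cer1 and Sost passed the background call on 0 arrays, and Dand5, measured on all 4, differed by 0.69 at 0 h and 0.36 at 24 h. Over time in WT, 2 of 13 antagonists were higher at 24 h (15.8% of all genes) and 0 lower (5.57%). The list median was 0.40 against 0.28 over all genes. In KO, 2 of 12 were higher (9.49%) and 1 lower (10.9%), with medians of 0.32 and 0.23. The 2 higher in WT, Chrdl1 at 1.81 and 1 other, were dim on WT 0 h, at −6.81 and −7.11. The dimmest 2 spiked-in RNAs gave 0.98 and 1.25 for that comparison. With normexp 0 were higher in WT, and with quantile normalization or cyclic loess 1 was. The 2 higher in KO became 0 with fibroblast marker or spike-in scaling.

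**Figure D2:**
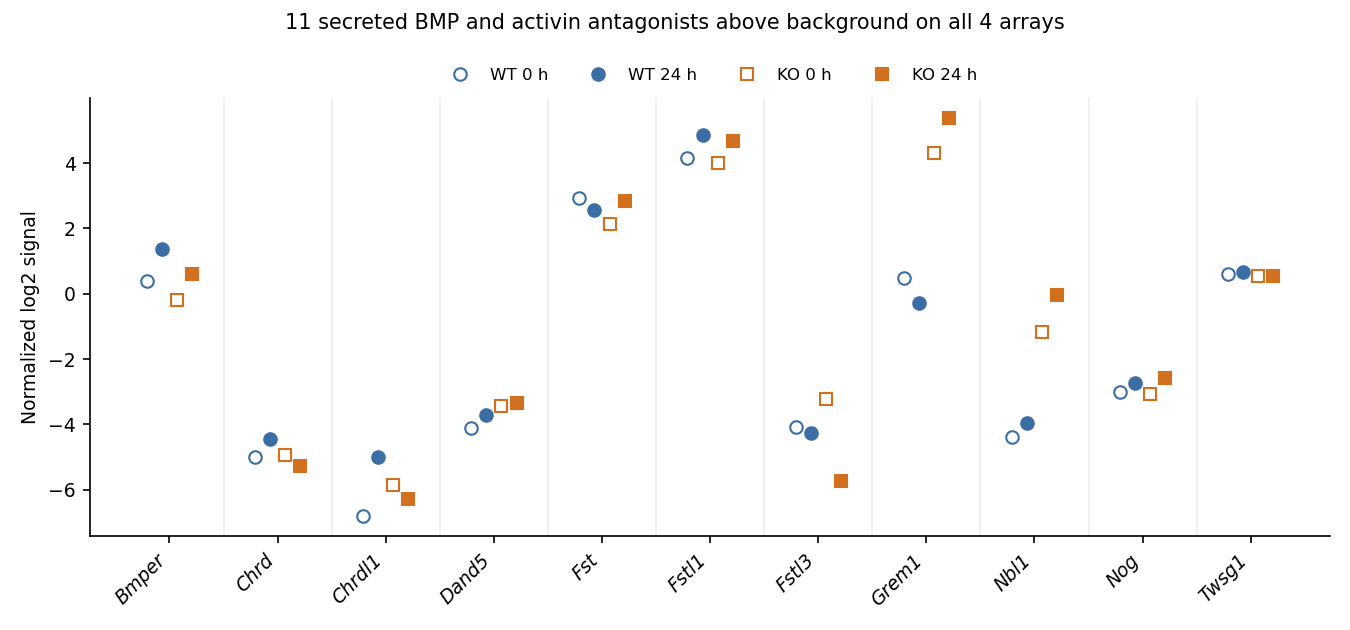
Normalized log2 signal of 11 secreted BMP and activin antagonists above background on all 4 arrays, with WT as circles, KO as squares, 0 h open and 24 h filled. Grem1 and Nbl1 separate by genotype at both times, while Fst, Nog, Fstl1, Twsg1 and Bmper do not differ by 2-fold between genotypes at either time.

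The 3 genes whose profiles over the 4 arrays lay closest to that of Grem1, after each gene's mean was subtracted, were Fbxl16, Celf4 and Gpr85, among 12861 genes compared. Their root mean square distances from Grem1 were 0.12, 0.30 and 0.38 on the log2 scale. Fbxl16 read −4.12 and −4.82 in WT at 0 h and 24 h, and −0.53 and 0.61 in KO, so that KO exceeded WT by 3.59 and then 5.43. Such likeness rests on 4 arrays only.

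The Id genes encode small helix-loop-helix proteins that block DNA binding by other transcription factors and are direct targets of BMP-activated Smads in many cells. Id1 had a signal of 20199 and 15432 in WT at 0 h and 24 h, and 12561 and 17386 in KO, or normalized levels of 4.08 and 4.06 in WT and 3.65 and 4.54 in KO (chr2:152563083-152563142 of mm9, plus strand). All 4 levels lay within 2-fold of each other, with the KO 0 h array lowest and the KO 24 h array highest. KO minus WT was −0.43 (SE 0.20) at 0 h and 0.48 (SE 0.20) at 24 h. Id1 changed by −0.02 with time in WT and by 0.89 in KO.

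Id3 showed a like course. Its signal was 6834 and 4427 in WT at 0 h and 24 h, and 4138 and 5931 in KO, giving normalized levels of 2.51 and 2.26 in WT and 2.04 and 2.98 in KO. The annotation places its 60-base probe over 175 bases, chr4:135700075-135700249 of mm9 on the plus strand. KO lay below WT at 0 h (−0.47, SE 0.20) and above it at 24 h (0.73, SE 0.20). The time change was −0.26 in WT and 0.94 in KO, and the difference between the changes was 1.19 (SE 0.29).

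Id2 behaved unlike Id1 and Id3. The signal was 14955 and 1726 in WT at 0 h and 24 h, and 20952 and 4508 in KO, or normalized levels of 3.64 and 0.90 in WT and 4.38 and 2.59 in KO (chr12:25778904-25778963 of mm9, minus strand). Both 24 h arrays lay below both 0 h arrays. The time change was −2.74 (SE 0.20) in WT, a 6.7-fold difference, and −1.80 (SE 0.20) in KO, 3.48-fold. KO exceeded WT by 0.74 at 0 h and by 1.69 (SE 0.20), or 3.22-fold, at 24 h. From the lowest level to the highest, the arrays ran from WT to KO at 24 h and then from WT to KO at 0 h, with every step larger than the spot error.

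The mast cell markers moved with Id2 over time. Of the 15 mast cell markers measured at both times, 15 were at least 2-fold lower at 24 h in WT and 15 in KO, with medians of −8.99 and −9.42. Their part in the Id2 change was not tested. At 24 h, where KO exceeded WT in Id2 by 1.69, the median KO minus WT of the 13 measured mast cell markers was 0.41, with 3 at least 2-fold higher and 1 lower. At 0 h their median was 0.93, with 9 of 20 at least 2-fold higher in KO and 0 lower.

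The genes closest to Id2 in profile were Ulbp1, Havcr2 and Rgcc, at distances of 0.05, 0.065 and 0.11. Havcr2, which encodes the immune receptor TIM-3, read −0.92 and −3.50 in WT at 0 h and 24 h, and −0.06 and −1.94 in KO. It differed over time by −2.58 in WT and −1.88 in KO.

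Smad6 encodes an inhibitory Smad that acts mainly on BMP signals and is itself induced by them. Its signal was 1802 and 1260 in WT at 0 h and 24 h, and 524.8 and 796.4 in KO, or normalized levels of 0.59 and 0.44 in WT and −0.93 and 0.09 in KO (chr9:63800980-63801039 of mm9, minus strand). The KO 0 h array stood below the other 3, and the 2 WT arrays differed by less than the spot error. KO minus WT was −1.52 (SE 0.20) at 0 h, a 2.88-fold difference and rank 367 of 20308 from the lowest, and −0.36 (SE 0.20) at 24 h. With scaling to fibroblast markers, whose median was itself lower in KO at 0 h, the 0 h difference was −0.74 and no longer 2-fold.

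With time, Smad6 changed by −0.15 in WT and by 1.02 in KO, which is 2.03-fold. The KO change exceeded the WT change by 1.17 (SE 0.29). The gain in KO was under 2-fold at 0.94 with normexp and quantile normalization, 0.29 with scaling to fibroblast markers and 0.67 with scaling to spiked-in RNA. Cldn12, Dancr and Pwwp3b had the closest profiles, at distances of 0.05, 0.052 and 0.069. Cldn12, a claudin gene, read 3.17 and 2.92 in WT at 0 h and 24 h, and 1.52 and 2.55 in KO.

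Smad7 encodes the inhibitory Smad that acts on both branches. The signal was 1164 and 880 in WT at 0 h and 24 h, and 646.5 and 672.7 in KO, or normalized levels of −0.04 and −0.07 in WT and −0.63 and −0.16 in KO (chr18:75555371-75555430 of mm9, plus strand). The KO 0 h array was again the lowest, and the other 3 lay within the spot error of each other. KO minus WT was −0.59 (SE 0.20) at 0 h and −0.08 (SE 0.20) at 24 h, and the time changes of −0.03 in WT and 0.48 in KO differed by 0.51. Smad7 reached 2-fold in none of the 5 contrasts.

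A wider list of 12 BMP response genes held Id1, Id2, Id3 and Smad6. At 0 h, 0 were at least 2-fold higher (9.34% of all genes) and 4 of 12 lower (4.07%) in KO, with a median of −0.50 against 0.06. The lowest 3 were Smad6, Id4 at −1.40 and Msx1, a homeobox gene, at −1.31. A second Id4 probe gave −0.42. At 24 h, 1 of 10 measured genes (Id2) was at least 2-fold higher (5.76% of all genes) and 0 were lower (12.2%), with a median of 0.30 against −0.09. Dlx5, dim throughout, was above background on WT 24 h but not on KO 24 h, at least 2.03-fold lower in KO by that bound. The median at 0 h was 0.29 when arrays were scaled to fibroblast markers and that at 24 h −0.15 with the spiked-in RNA, so the sign of both list medians depended on the reference.

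Tgfbi is the TGF-beta response gene among the members and encodes a secreted matrix protein. Its signal was 4508 and 15357 in WT at 0 h and 24 h, and 2053 and 11880 in KO, or normalized levels of 1.91 and 4.05 in WT and 1.03 and 3.99 in KO (chr13:56740460-56740519 of mm9, plus strand). Both 24 h arrays were far above both 0 h arrays, and the 24 h arrays did not differ beyond the spot error. The 24 h array exceeded the 0 h array by 2.14 (SE 0.20) in WT, 4.4-fold and rank 121 of 19191, and by 2.95 (SE 0.20) in KO, 7.74-fold and rank 13 of 17857. KO minus WT was −0.88 (SE 0.20) at 0 h and −0.07 (SE 0.20) at 24 h.

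Fibroblast markers moved the same way as Tgfbi with time. Their median was 0.81 higher at 24 h in WT (8 of 18 at least 2-fold higher, 0 lower) and 1.15 higher in KO (10 of 18 higher, 1 lower), and their part in the Tgfbi change was not tested. With arrays scaled to those markers, Tgfbi was still 1.70 higher at 24 h in WT and 2.23 higher in KO. The closest profiles were those of Cp, Dcn and Sema3b, at distances of 0.19, 0.21 and 0.29. Dcn, which encodes the matrix proteoglycan decorin and is also one of the fibroblast markers, read 3.34 and 5.20 in WT at 0 h and 24 h, and 1.86 and 5.19 in KO.

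Across the members, 1 of 9 was at least 2-fold higher at 24 h in WT (Tgfbi, where 15.8% of all genes were higher) and 1 lower (Id2; 5.57% of all genes). In KO, 3 were higher (Grem1, Smad6 and Tgfbi; 9.49% of all genes) and 1 lower (Id2; 10.9% of all genes). In WT, 7 of the 9 time changes were below 0 (28.5% of all genes), with a median of −0.15 against 0.28 for all genes. In KO, 8 were above 0 (62.2% of all genes), with a median of 0.89 against 0.23. Scaling to fibroblast markers made these splits 1 above and 8 below 0 in WT, and 5 above and 4 below in KO. Over all genes, 7221 of 19191 were then above 0 in WT and 3567 of 17857 in KO.

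**Figure D3:**
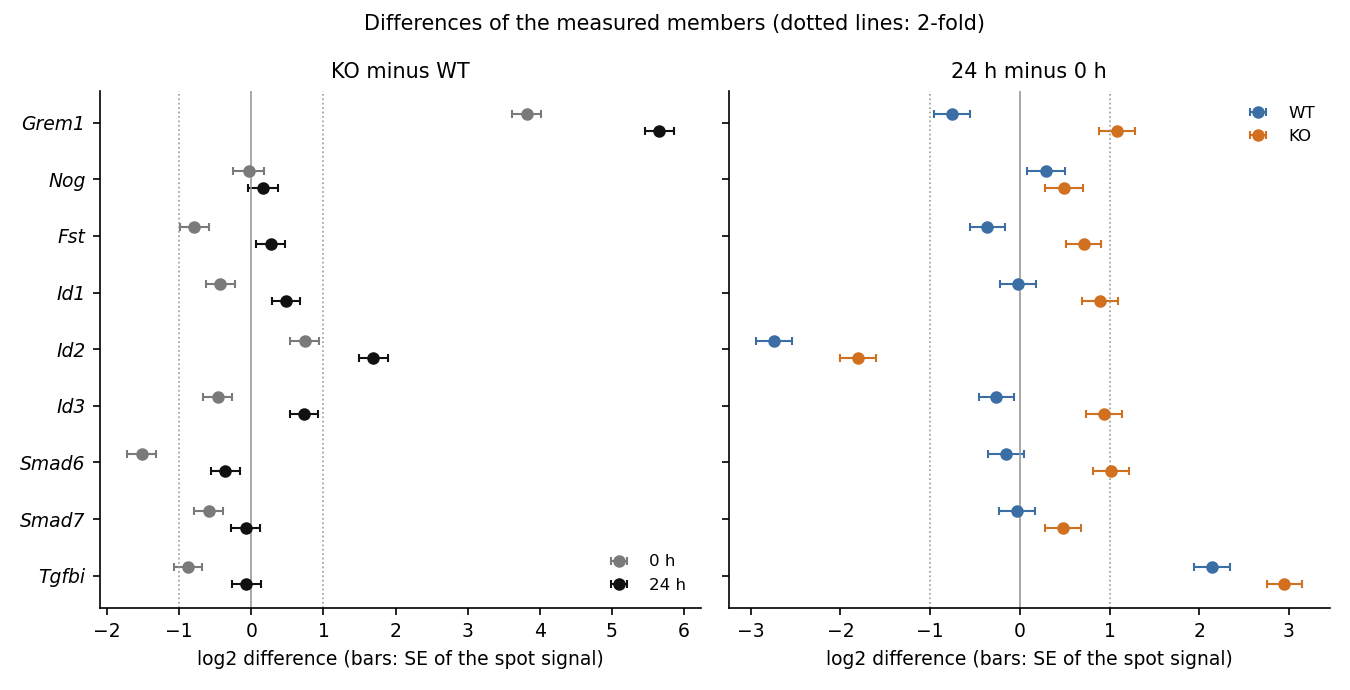
The log2 differences of the 9 measured genes between genotypes at each time (left) and between times in each genotype (right), with bars for the SE of the spot signal and dotted lines at 2-fold. Grem1 stands apart on the left at 3.82 and 5.66, Id2 and Tgfbi stand apart on the right, and the KO points on the right lie to the right of the WT points for all 9 genes.

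The KO change minus the WT change was above 0 in 9 of 9 measured members (52.1% of all 17111 genes), with a median of 0.95 against 0.03 over all genes. It was at least 2-fold higher in 4 of them (Grem1, Fst, Id3 and Smad6; 4.72% of all genes) and lower in 0 (13.3% of all genes). Id1 gave 0.91, Id2 0.95 and Tgfbi 0.81, each below 2-fold. The split over the members was 9 above and 0 below 0 under all scalings run except scaling to fibroblast markers, where Nog turned to −0.09 and left 8 and 1. Under that scaling Grem1 alone stayed past 2-fold, and under scaling to spiked-in RNA Grem1 and 1 other member did (Id3). Over all 17111 genes, 5239 were above 0 with fibroblast marker scaling, 6419 with spiked-in RNA and 10898 with cyclic loess. Of the 12 BMP response genes, 10 were measured on all arrays, and in all 10 the KO change exceeded the WT change, by 0.50 to 1.67 with a median of 1.12. For 6 of these 10 the excess was at least 2-fold (4.72% of all genes), led by Atoh8 at 1.67, Id4 at 1.47 and Msx1 at 1.27. The Id4 value holds for its brighter probe only: its second probe, above background on all 4 arrays, changed with time by 0.27 in WT and 0.02 in KO, so that there the KO change was the smaller one. All 10 stayed above 0 under each scaling run, but the number past 2-fold fell to 4 with normexp background correction, 4 with scaling to spiked-in RNA and 2 with scaling to fibroblast markers. The KO 0 h array enters every one of these values. The 17 fibroblast markers measured on all arrays had a median of 0.19 for the same quantity, with 3 at least 2-fold higher and 1 lower. The 13 mast cell markers had −0.20 (2 higher, 2 lower) and the 6 pan-leukocyte markers −0.89 (0 higher, 2 lower). At 0 h the mast cell markers had a median KO minus WT of 0.93 (9 of 20 higher, 0 lower). The pan-leukocyte markers had 1.01 at 0 h (7 of 10 higher, 0 lower). The part of these cells in the excess was not tested. Time changes in KO alone were at least 2-fold higher for 5 of 11 BMP response genes (9.49% of all genes) and lower for 1 (10.9%), with a median of 0.94 against 0.23. The 5 were led by Msx1 at 1.32, Atoh8 at 1.30 and Hey1 at 1.19. These 5 became 3 with normexp, and 0 with scaling to fibroblast markers (2 lower, median 0.21) or to spiked-in RNA (1 lower, median 0.58). In WT 1 was lower (Id2; 5.57% of all genes) and 1 higher (15.8%), with a median of −0.15 against 0.28. Msx2 was at least 2.84-fold lower by its bound. The gene higher in WT was Dlx5, which at 1.05 was just past 2-fold and at −6.72 on the WT 0 h array was dim, where the dimmest 2 spiked-in RNAs gave 0.98 and 1.25 for the same comparison. It was below 2-fold under quantile normalization, cyclic loess, normexp, and scaling to fibroblast markers or to spiked-in RNA.

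Of the 20 TGF-beta response genes, which include Tgfbi, every one that reached 2-fold between genotypes was higher in KO, but the list did not move as a whole. At 0 h, 8 of 20 were at least 2-fold higher in KO (9.34% of all genes) and 0 lower (4.07%), with a median of 0.53 against 0.06. Regardless of size, 12 were above 0 and 8 below, where 54% of all genes were above. At 24 h, 10 were higher (5.76% of all genes) and 0 lower (12.2%), with a median of 1.01 against −0.09. Of the 20, 14 were above 0 and 6 below, where 43.2% of all genes were above. Tagln, an actin-binding protein of smooth muscle and contractile fibroblasts, led at both times. It read −2.09 and −3.77 on the WT arrays at 0 h and 24 h and 5.92 and 6.03 on the KO arrays, differences of 8.02 and 9.79. Acta2, smooth muscle actin, differed by 2.84 and 2.72, and Postn, the matrix protein periostin, by 2.71 and 1.21. Ccn2, a matricellular protein, differed by 2.39 and 3.56. Tgfbi, at −0.88 and −0.07, was not among the genes higher in KO. Neither were the matrix genes Col1a1 (−0.26 and −0.09), Col1a2 (−0.47 and −0.27) and Fn1 (−0.02 and −0.03). Col1a1, Col1a2 and Fn1 are also among the fibroblast markers used for scaling. The list medians at 0 h and 24 h stayed above 0 under every scaling run, and the counts ranged from 6 to 12 higher at each time, with 1 gene lower at 0 h under scaling to spiked-in RNA. The 12 came with fibroblast marker scaling, where the list medians were 1.32 and 1.51 and those of all genes 0.84 and 0.41. Under it 8134 of 20308 genes were 2-fold higher at 0 h and 2714 of 17283 at 24 h. With spiked-in RNA the list medians were 0.29 and 0.57 against −0.19 and −0.53 over all genes. Whether the list differs from the BMP response list or from other genes was not tested.

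Over time the TGF-beta response genes were mixed. In WT, 2 were at least 2-fold higher at 24 h (Tgfbi and Cnn1, at 2.14 and 1.29) and 3 lower, among them Ccn2 at −2.18 and Tagln at −1.67, with a median of 0.12 against 0.28. Of all genes, 15.8% were higher and 5.57% lower in WT. Cnn1 was dim at −6.82 on the WT 0 h array, near the dimmest 2 spiked-in RNAs, which gave 0.98 and 1.25, and it was below 2-fold under quantile normalization, cyclic loess, normexp and fibroblast marker scaling. The 3 lower became 6 with scaling to fibroblast markers and 5 with scaling to spiked-in RNA. In KO, 3 were higher (Tgfbi at 2.95, Cdkn2b at 1.13 and Il11 at 1.02) and 2 lower (Postn at −1.08 and Ccn2 at −1.01), with a median of 0.16 against 0.23. Of all genes, 9.49% were higher and 10.9% lower in KO. The 3 higher became 1 with normexp, 1 with fibroblast markers and 1 with spiked-in RNA, and the 2 lower became 1, 5 and 3. Tgfbi had the highest time change of the 20 in each genotype.

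**Figure D4:**
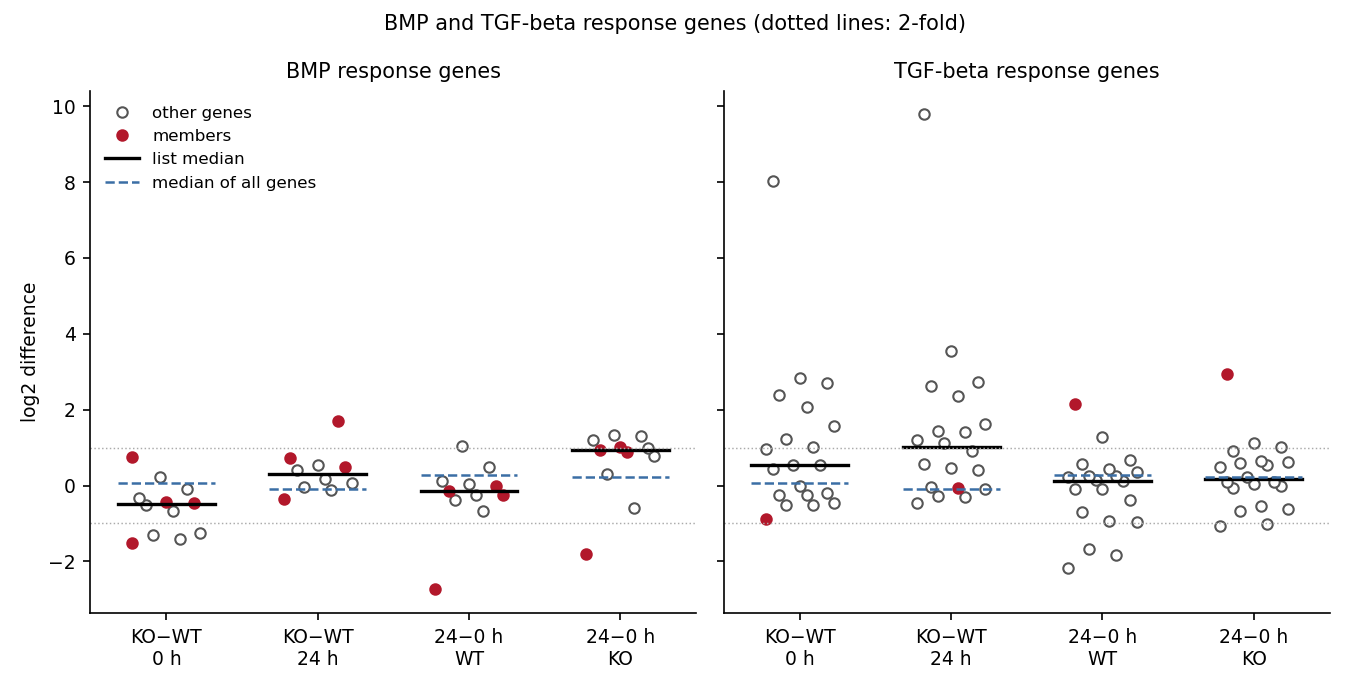
The log2 differences of measured BMP response genes (left) and TGF-beta response genes (right) in the 4 comparisons, with members in red, other genes as open circles, black bars for list medians, dashed bars for the median of all genes and dotted lines at 2-fold. The TGF-beta list has 8 and 10 of 20 genes past 2-fold higher in KO at 0 h and 24 h, while the BMP list has 4 of 12 lower at 0 h and 1 of 10 higher at 24 h. Of all measured genes, 9.34% were higher and 4.07% lower in KO at 0 h, and 5.76% and 12.2% at 24 h.

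Ligands and receptors completed the pathway. The counts below stand beside these shares of all measured genes past 2-fold. Between genotypes, 9.34% were higher and 4.07% lower in KO at 0 h, and 5.76% and 12.2% at 24 h. Over time, 15.8% were higher and 5.57% lower at 24 h in WT, and 9.49% and 10.9% in KO. The medians of all genes were 0.06, −0.09, 0.28 and 0.23 in the same order. Of 14 BMP and GDF ligands, 7 were measured at 0 h, with 1 at least 2-fold higher in KO (Bmp7 at 1.02) and a median of 0.28 against 0.06. With cyclic loess (median −0.13) and with scaling to spiked-in RNA (median 0.03) 0 were higher at 0 h. The median was −0.04 with quantile normalization and with normexp. At 24 h 5 were measured, with 0 higher and 3 lower (median −1.44 against −0.09). The 3 lower ones, Gdf5 at −1.84, Gdf7 at −1.53 and Bmp10 at −1.44, were dim on all arrays, and the dimmest 2 spiked-in RNAs gave −0.70 and −0.80. With cyclic loess (median −0.54) and with normexp (median −0.34) 0 ligands were 2-fold lower at 24 h, although all 5 were below 0. Bmp4 was above background on the KO arrays only, at least 3.48-fold higher at 0 h and at least 4.27-fold at 24 h by the bound that the dimmest measured signals give, and a second Bmp4 probe was above background on 0 arrays. Gdf10 was above background on the WT arrays only, at least 15.3-fold lower in KO at 0 h and at least 24.9-fold at 24 h. Bmp7 read 1.84 and 2.86 at 0 h and −5.72 and −6.78 at 24 h in WT and KO, and the mast cell marker medians were likewise high at 0 h and low at 24 h, with their part in it not tested. Between genotypes at 0 h, the mast cell markers had a median KO minus WT of 0.93, and their part in the Bmp7 difference was not tested. In KO, where Bmp7 was not above background at 24 h, it was at least 747-fold lower than at 0 h. Over time the ligand list had 2 of 7 higher and 1 lower in WT and 2 of 6 higher and 2 lower in KO, with medians of 0.74 and −0.88. Those counts and medians moved with the scaling: in KO 0 were lower under quantile normalization (median −0.14), cyclic loess (−0.06) and normexp (−0.03), and in WT the median was 0.26 under cyclic loess.

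Of 11 TGF-beta and activin ligands and latency proteins, all measured, 1 was at least 2-fold higher in KO at 0 h (Lrrc32 at 1.32), where 9.34% of all genes were. The list median was 0.49. At 24 h, 4 were higher (5.76% of all genes) with a list median of 0.93, and 0 were lower at either time. Inhbb, an activin subunit, was the highest at 24 h at 2.04, followed by the latent TGF-beta binding protein gene Ltbp4 and by Tgfb3, both at 1.28. With time 0 changed by 2-fold in WT (median 0.13), and 5 were higher and 1 lower in KO (median 0.71), with Inhbb at 1.28, Tgfb3 at 1.25 and Tgfb1 at −1.46. The 5 higher in KO with time became 2 with normexp, and 0 with scaling to fibroblast markers (median −0.01) or to spiked-in RNA (median 0.36). Between genotypes, scaling to fibroblast markers gave 7 higher at 0 h and 8 at 24 h (medians 1.28 and 1.43), and scaling to spiked-in RNA 1 higher and 1 lower at 0 h and 1 higher at 24 h (medians 0.24 and 0.49). The medians of all genes were 0.84 and 0.41 with fibroblast markers and −0.19 and −0.53 with spiked-in RNA.

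Among BMP receptors and co-receptors, 0 of 9 were at least 2-fold higher and 2 lower in KO at 0 h (median −0.24), namely the type II receptor genes Bmpr2 at −1.14 and Acvr2a at −1.61. The activin receptor genes Acvr2a and Acvr2b were counted in this list only, so its counts are not of BMP receptors alone. At 24 h, 1 was higher (Acvr1 at 1.11) and 1 lower (Acvr2a at −1.87), with a median of −0.19. With time, 1 was higher in WT (Acvr2a at 1.09; median 0.41) and 1 in KO (Rgmb at 1.14; median 0.67). Scaled to fibroblast markers, the genotype medians of this list were 0.54 at 0 h and 0.31 at 24 h, and those over time −0.02 in WT and −0.06 in KO.

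The TGF-beta and activin receptors had 1 of 5 higher and 1 lower at 0 h, Acvr1c at 1.58 and Tgfbr3 at −1.87, with a median of 0.72. Acvr1c was dim, at −6.27 on the WT 0 h array and −4.68 on the KO 0 h array. The dimmest 2 spiked-in RNAs gave 0.59 and 0.68 for the same comparison. With normexp 0 of 5 were higher and the median was 0.27. The receptor gene Tgfbr1 was lower at 24 h in KO on its brightest probe (−1.43), but its 4 probes disagreed, and the other probe above background on all arrays gave 0.54. That list had 0 of 4 higher and 1 lower in KO at 24 h (median −0.24), 0 of 4 higher and 1 lower over time in WT (−0.17), and 1 of 4 higher and 2 lower over time in KO (−0.48). The 12 Smads and Smad regulators were nearly all within 2-fold: Smad3 was lower in KO at 0 h at −1.18 (list median −0.18), and Skil, a repressor induced by TGF-beta, was higher at 24 h at 1.42 (list median −0.08). With time 0 of them reached 2-fold in WT (median 0.21), and 1 in KO, the ubiquitin ligase gene Smurf1 at 1.58 (median 0.31). The Smad list medians turned with fibroblast marker scaling, to 0.61 at 0 h and 0.42 at 24 h between genotypes, and to −0.23 in WT and −0.42 in KO with time.

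Of the 45 member differences over the 5 contrasts, 14 reached 2-fold, and 8 of these did so under every alternative processing that kept the 2-fold limit. The 8 were the genotype differences of Grem1 at both times and of Id2 at 24 h, the time changes of Id2 and Tgfbi in each genotype, and the excess of the KO change over the WT change in Grem1. The dim-probe filters, the use of all probes and the authors' table returned the reported values. Only quantile normalization, cyclic loess, normexp, and fibroblast marker or spike-in scaling could move them.

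**Figure D5:**
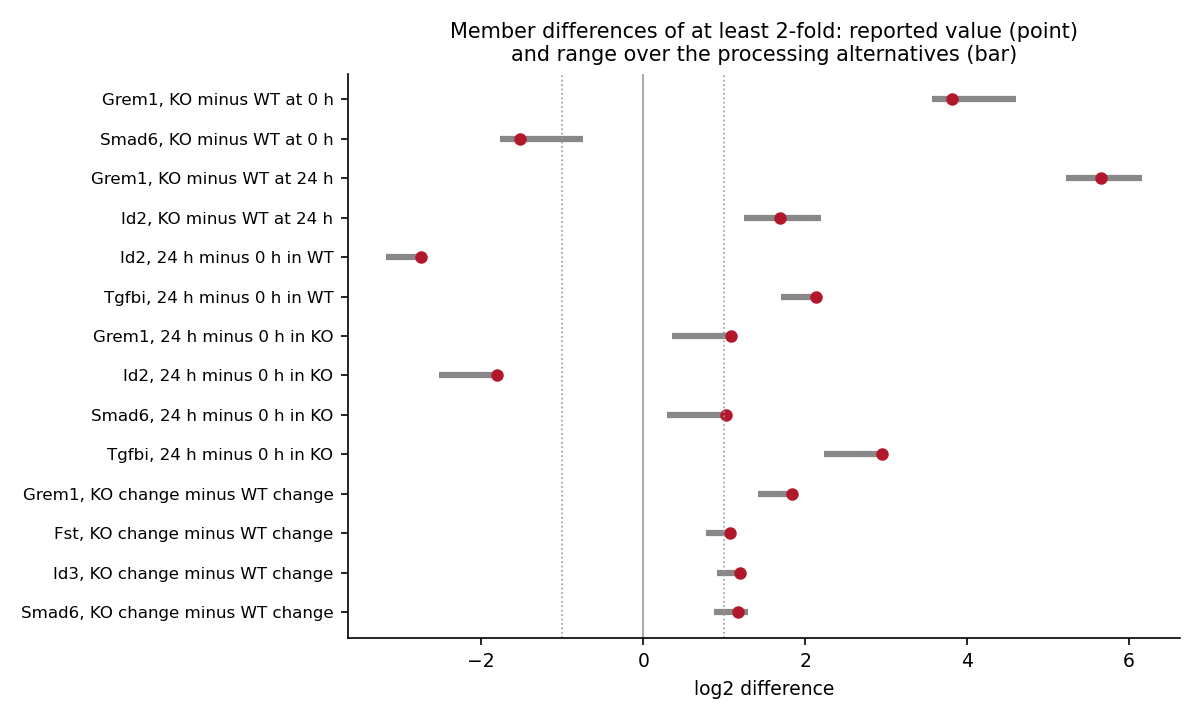
The 14 member differences of at least 2-fold, with the reported log2 value as a point, the range over the processing alternatives as a bar and dotted lines at 2-fold. The Grem1 genotype bars span 3.57 to 4.61 at 0 h and 5.22 to 6.16 at 24 h, while the bars of the Grem1 and Smad6 time changes in KO reach down to 0.35 and 0.29.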

How the data were processed

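The series holds 4 single-colour (Cy3) Agilent arrays on 1 slide. Per the file headers, the authors' scanner files hold spot intensity from Agilent Feature Extraction 12.1.1.1, already background-subtracted and detrended, and probes are placed on mm9. The deposited value table is a ratio, each processed signal over its array's 75th percentile (1197.47 and 926.641 in WT at 0 h and 24 h, 1002.93 and 749.899 in KO), so it is linear, not centred and in the direction of signal, with column medians of 0.0442 and 0.0452 in WT and 0.0483 and 0.0334 in KO. Per the labels, 200 ng of RNA was labelled.

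Control and flagged spots were left out, log2 processed signal was scaled to the 75th percentile of 43020 spots, and repeated spots were averaged per probe. The accession named 29110 of 39429 probes through the RefSeq table of GRCm38.p6, and 10319 kept the file's name. A gene took its brightest probe. To be measured in a contrast, a gene had to pass the scanner's background call, unsaturated, on each of its arrays. In all, 0 spots were saturated, and 62.1% to 72.7% of spots were well above background. With 1 array per group, their number limits the precision. A bound sets the brighter level against the higher of the dim signal and that array's lowest signal well above background.

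The members and lists were chosen with earlier results of these data known. Named genes were the members, up to 3 per list and direction of each comparison past 2-fold, and the 3 nearest profiles. Genes named for other reasons (Bmp4, Gdf10, Dlx5, Msx2, Cer1, Sost, Dand5, Col1a1, Col1a2, Fn1, and the genes in captions) were chosen after their values were seen. Alternatives were quantile normalization, cyclic loess, normexp (offset 50) with quantile, the authors' table, fibroblast marker scaling, filters on dim probes, all probes, a 1.5-fold limit and, added after seeing the data, scaling to the 8 spiked-in RNAs above −4. Python 3.11.15, pandas 2.3.3, numpy 2.4.6, R 4.3.3 and limma 3.58.1 were used, and the counting script was tested on simulated data. Probe sequences and exon placement of probes were not analysed here. The counts and medians cover each whole list, of which some genes are not reported here by name.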

Additional observations from a re-analysis of the deposited data

Results flagged for a closer look

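In 4 members the WT and KO arrays moved in opposite directions with time, and the KO change exceeded the WT change by at least 2-fold. The excess was 1.84 for Grem1 (−0.76 in WT, 1.08 in KO), 1.07 for Fst (−0.36 and 0.71), 1.19 for Id3 (−0.26 and 0.94) and 1.17 for Smad6 (−0.15 and 1.02), all on the log2 scale. With 1 array per group, the difference between the genotypes was not tested. All 4 excesses contain the same KO 0 h array. At 0 h the mast cell markers had a median KO minus WT of 0.93 and the pan-leukocyte markers 1.01, and their part was not tested. The excess of Grem1 stayed past 2-fold under every alternative run. With fibroblast marker scaling the changes of Fst no longer opposed each other (−0.79 in WT and −0.02 in KO), and the excess was 0.78 for Fst, 0.91 for Id3 and 0.88 for Smad6, below 2-fold. With spike-in scaling it was 0.87 for Fst and 0.97 for Smad6. The WT changes of Id3 and Smad6 were close to the spot error of 0.20.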

How the results depend on the processing

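Of 126 alternative values of the 14 member differences past 2-fold, 112 stayed past it in the same direction, and none of the 14 changed sign. Of the other differences, 14 changed sign, 12 of them with fibroblast marker scaling and 2 with spike-in scaling. Part of the 126 values could not differ from the reported ones. With 1 probe per member, the dim-probe filters and the use of all probes returned the reported values. The authors' table is the same signal over the same percentile. Every value that fell below 2-fold came from quantile normalization, cyclic loess, normexp, fibroblast marker or spike-in scaling. The member counts past 2-fold that moved by over 1.5 times were as follows. At 0 h the 2 members apart between genotypes became 4 with spike-in scaling and 6 with the 1.5-fold limit. The 4 apart over time in KO became 2 with normexp, 2 with fibroblast marker scaling, 2 with spike-in scaling and 7 with the 1.5-fold limit. The 4 with differing changes became 1 with fibroblast marker scaling, 2 with spike-in scaling and 7 with the 1.5-fold limit; of the members that dropped below 2-fold, Fst gave 0.78 and 0.87, Id3 0.91 with fibroblast markers, and Smad6 0.88 and 0.97.

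Of the 100 pathway genes, 22 were apart between genotypes at 0 h, which became 40 with fibroblast marker scaling, 13 with the stricter filter on dim probes and 41 with the 1.5-fold limit. At 24 h 26 became 16 with the stricter filter. Over time in WT, 14 became 8 with normexp, 23 without a filter, 6 with the stricter filter and 33 with the 1.5-fold limit. Over time in KO, 29 became 15 with normexp, 19 with fibroblast marker scaling, 17 with the stricter filter, 16 with spike-in scaling and 50 with the 1.5-fold limit. For the difference of changes, 21 became 11 with normexp, 32 without a filter, 12 with the stricter filter and 43 with the 1.5-fold limit.

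Fibroblast marker scaling moved the median of all genes to 0.84, 0.41, −0.16, −0.50 and −0.26 over the 5 contrasts, and spike-in scaling to −0.19, −0.53, 0.11, −0.13 and −0.16. The 75th percentile gave 69.7% of the genes called at 0 h as higher in KO and 32.0% of those at 24 h. Cyclic loess gave 46.4% and 58.7%, quantile normalization 58.3% and 46.1%, normexp 59.3% and 50.3%, fibroblast markers 97.0% and 72.4%, and spiked-in RNA 33.5% and 11.7%. Over time, the shares higher were 73.9% in WT and 46.5% in KO with the 75th percentile, 52.8% and 64.6% with cyclic loess, 65.0% and 60.8% with quantile normalization, 38.9% and 45.6% with normexp, 41.9% and 3.99% with fibroblast markers, and 64.8% and 16.5% with spiked-in RNA. The causes were not tested. No paired analysis was possible because each group had 1 array. Bambi, not above background, is limited by signal.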
